A study of Mus musculus with 16 samples.

Results

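Messenger RNA of the transcription factors and nuclear receptors that shape hepatocyte gene expression was measured in mouse liver. The group was named as 9 genes: Hnf4a, Foxa2, Foxa3, Cebpa, Cebpb, Nr1h4, Nr0b2, Nr1i3 and Onecut1. Rows of the deposited value table were matched to these symbols through their transcript identifiers, and the probe with the highest mean over the 16 arrays stood for each gene. A row was found for 8 of the 9 genes, and Foxa2 was not analysed here. All 8 passed the filter for signal above background, on all 16 arrays, among 31484 genes tested, of which 17666 carried a gene symbol.

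The study measured liver transcripts in male mice aged 6 weeks, with 4 mice in each of 4 genotypes of the ceramide synthase gene Cers2. CerS2 H/A (H/A) and CerS2 Del (Del, condition delHox in the labels) were set against CerS2 Flox (Flox, condition delneo) and CerS2 WT (WT). All 4 groups shared a mixed C57BL/6 and SV129 background, and the labels used here do not say what the delHox and delneo alleles contain. By the series title, the question was how the catalytic activity of ceramide synthase 2 bears on transcription. Del and Flox formed a pair besides the comparisons with WT, and the comparisons with WT share the WT arrays. The level of Cers2 itself was not analysed here.

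Hepatocyte identity is held by a small set of factors that bind one another's genes and the promoters of plasma protein, lipid and bile acid genes. HNF4A, the FOXA proteins, the C/EBP proteins and HNF6 (the product of Onecut1) bind DNA without a known need for a hormone. FXR (Nr1h4) is the bile acid receptor, SHP (Nr0b2) is a receptor-like repressor that FXR induces, and CAR (Nr1i3) is a receptor for foreign compounds that also responds to bile acids. Whole liver RNA mixes hepatocytes with other cells, so fewer cells of a type and less RNA per cell cannot be told apart.

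Onecut1 was the member that changed, and its promoter is printed with that of the upstream start of Hnf4a, a gene that HNF6 is known to bind. Both are from RefSeq on GRCm38.p6, plus strand, around the annotated start. The Onecut1 window is chr9:74861671-74861970, at the start of a gene annotated at chr9:74861921-74889648, and the Hnf4a window is chr2:163506607-163506906. Capitals mark matches to the motifs searched on both strands.
Onecut1: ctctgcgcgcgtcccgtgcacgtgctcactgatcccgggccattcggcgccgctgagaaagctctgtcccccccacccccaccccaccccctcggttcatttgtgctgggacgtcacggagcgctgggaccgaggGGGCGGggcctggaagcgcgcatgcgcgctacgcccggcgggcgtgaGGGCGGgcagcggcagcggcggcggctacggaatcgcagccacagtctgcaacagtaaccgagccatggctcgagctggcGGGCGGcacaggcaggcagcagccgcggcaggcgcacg
Hnf4a: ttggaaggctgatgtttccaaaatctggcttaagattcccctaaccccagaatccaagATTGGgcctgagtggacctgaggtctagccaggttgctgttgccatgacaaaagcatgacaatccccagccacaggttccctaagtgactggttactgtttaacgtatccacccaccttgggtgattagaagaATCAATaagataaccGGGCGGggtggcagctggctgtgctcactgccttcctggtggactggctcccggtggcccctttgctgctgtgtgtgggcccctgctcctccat
The motifs were the ONECUT site ATTGAT, the nuclear receptor half-site AGGTCA, the FOXA site TGTTTAC, the C/EBP site TTGCGCAA, the HNF4A site CAAAGTCCA, the NR5A site TCAAGGTCA (which contains the half-site), the GC box GGGCGG, the TATA box TATAAA and the CCAAT box CCAAT. The Onecut1 window was 73% G and C and held 3 GC boxes, and no other motif of the set. A GC box was found in 35.7% of 32851 promoter windows of the same length. In the Hnf4a window an ONECUT site stood on the minus strand at position -59 from the start, and such a site was found in 7.54% of the windows. That window also held a GC box at -44 and a CCAAT box at -192. A downstream Hnf4a window, chr2:163546905-163547204, held a CCAAT box at -216 and no other motif of the set, so no ONECUT site. Which start the liver uses was not analysed here.

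Levels are log2 signals that the authors had normalised so that each array has the same distribution. By scanner flags, 51.6 to 65.1% of spots per array were well above background and none was saturated. Before scaling, the 75th percentile of signal was 109.5 to 173.6 in H/A, 91.1 to 115 in Del, 86.3 to 111.6 in Flox and 89.8 to 99 in WT. For 6 of 16 samples the listed scanner file was not the one at the labelled slide and position. In each of the 6, the value column matched the file at the labelled position, and the value columns were used throughout. The 9 hepatocyte markers were all detected, and their summed signal on the log2 scale was 18.21 to 18.36 in H/A, 18.3 to 18.35 in Del, 18.16 to 18.19 in Flox and 18.15 to 18.31 in WT.

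Among the 8 members, 1 fell in H/A livers against WT livers, and it was Onecut1. Over all genes, 10.1% were called in that comparison at a Benjamini-Hochberg adjusted p under 0.05 in limma, and 2.97% were called lower. In Del livers against WT livers Onecut1 again was the 1 member called, where 13.2% of all genes were called and 4.38% were called lower. In Del livers against Flox livers it was once more the 1 member called, where 34.8% of all genes were called and 18.2% were called lower. With 1 of 8 members called, nothing is read from the count itself against these shares. Limma called 0 members in Flox livers against WT livers, with 2 at an unadjusted p under 0.05 (0.0222% of all genes called). In H/A livers against Flox livers it called 0, with 1 at an unadjusted p under 0.05 (33.2% of all genes called). In H/A livers against Del livers it called 0, with 0 at an unadjusted p under 0.05 (0.0127% of all genes called). The median member difference was -0.20 in H/A against WT, where all genes had a median of -0.09, and -0.23 in Del against WT, where all genes had -0.11.

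**Figure D1:**
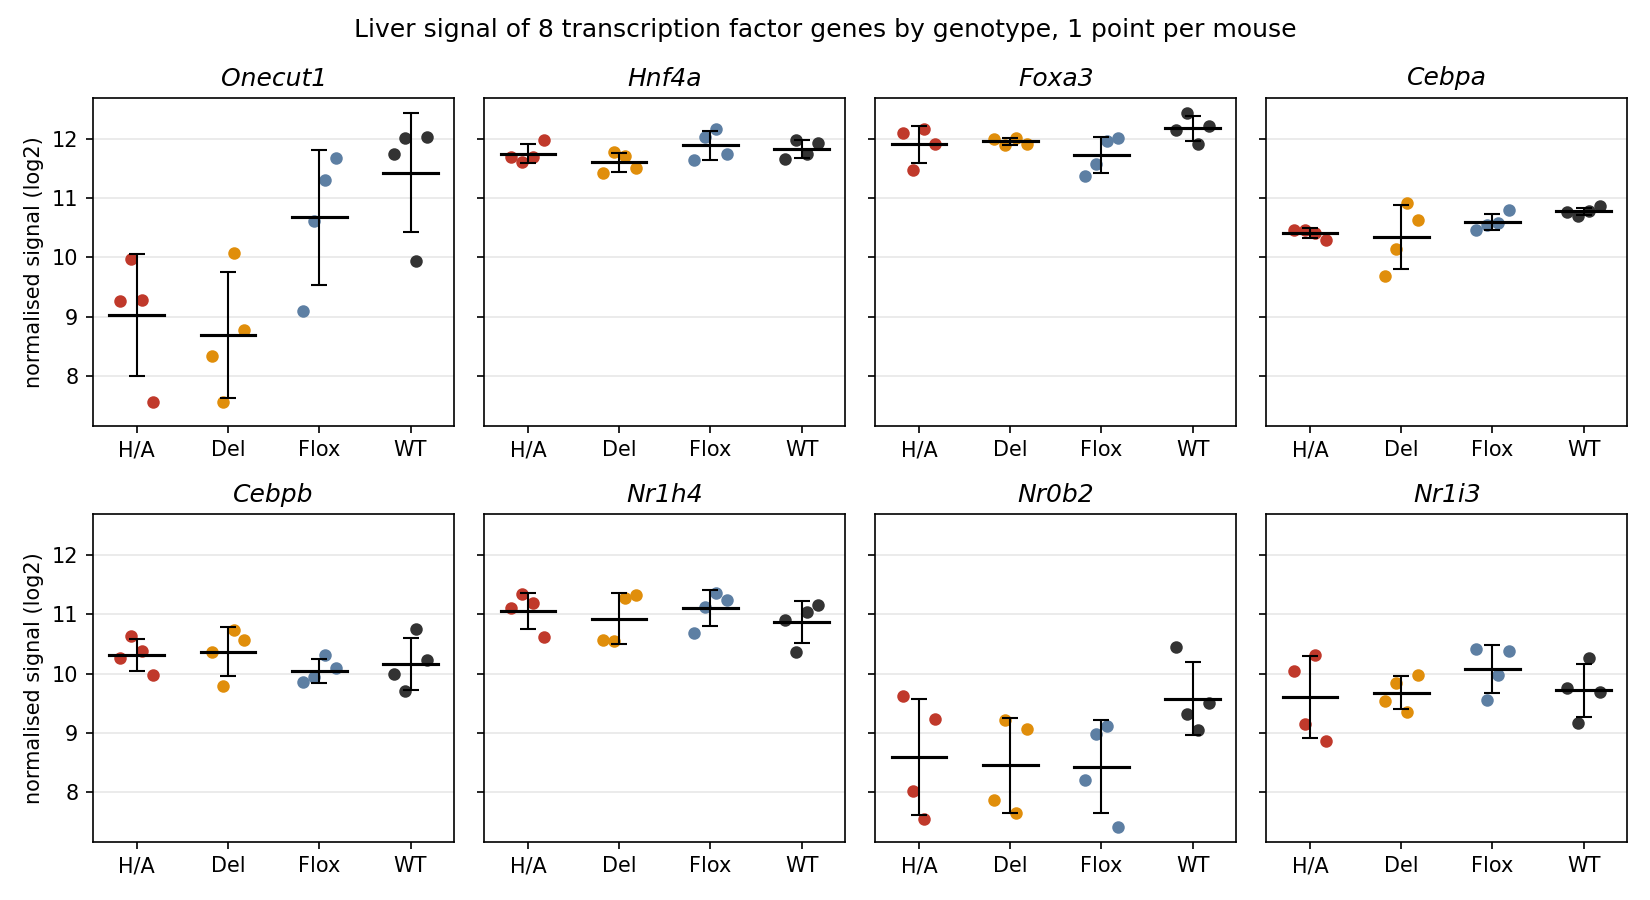
Normalised signal (log2, vertical axis) of the 8 genes in H/A, Del, Flox and WT livers, with 1 point per mouse, the group mean as a thick bar and the standard deviation as a whisker (n = 4 each). Onecut1 spans 7.56 to 12.04 over the 16 mice, against 11.43 to 12.16 for Hnf4a.

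Onecut1 encodes HNF6, a homeodomain factor of liver and bile duct development. In H/A livers its log2 level was 9.26, 9.97, 9.28 and 7.56, and in Del livers it was 8.33, 7.56, 10.08 and 8.78. In Flox livers the level was 9.10, 10.62, 11.30 and 11.68, and in WT livers it was 11.75, 12.01, 9.94 and 12.04. WT replicate 3 and Flox replicate 1 were low within their groups, and the H/A and Del ranges each touched or crossed the ranges of Flox and WT through them. Both mice are among the 6 samples whose listed scanner file was not the one at the labelled position. The others of the 6 are H/A replicate 4 (7.56), Del replicate 1 (8.33) and Flox replicates 2 (10.62) and 4 (11.68). The mean was 9.02 ± 1.03 in H/A, 8.69 ± 1.06 in Del, 10.68 ± 1.14 in Flox and 11.43 ± 1 in WT (SD, n = 4 each).

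The Onecut1 log2 difference between H/A and WT was -2.42 (95% interval -3.83 to -1, limma adjusted p = 0.0333), a level 0.187 times that of WT. Between Del and WT the difference was -2.74 (-4.16 to -1.33, limma adjusted p = 0.0138), a level 0.149 times that of WT. Between Del and Flox it was -1.99 (-3.40 to -0.57, limma adjusted p = 0.0336). The difference in Onecut1 between H/A and Flox, -1.66 (-3.08 to -0.24), had a limma adjusted p of 0.0652. Flox and WT differed by -0.76 (-2.17 to 0.66) and H/A and Del by 0.33 (-1.09 to 1.75), with limma adjusted p of 0.817 and 0.942. The H/A minus WT difference of Onecut1, less the Del minus Flox difference, was -0.43 (-2.43 to 1.58, limma adjusted p = 0.948). Limma called 0 members in this difference of differences, with 0 at an unadjusted p under 0.05, and 0.00318% of all genes, so the contrasts were not shown to differ.

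Onecut1 varied widely between mice of a genotype. Its pooled within-group standard deviation was 1.06, larger than that of 99.1% of genes. Leaving out 1 array at a time, Onecut1 stayed called in 16 of 16 fits of Del against WT, where its difference ran from -3.24 to -2.37. In H/A against WT it stayed called in 12 of 16 fits. The call was lost without H/A replicate 3 (-2.50, limma adjusted p = 0.0678), H/A replicate 4 (-1.93, 0.0876), WT replicate 1 (-2.31, 0.0759) or WT replicate 4 (-2.21, 0.1). In Del against Flox it stayed called in 10 of 16 fits, with differences of -2.51 to -1.61 over the 16 fits. The call was lost there without Del replicate 1, 2 or 4 or Flox replicate 2, 3 or 4. Leaving out an array of neither compared genotype does not change the difference. All the lost calls came from leaving out an array of a compared genotype. Within the first slide the Onecut1 difference was -2.38 in H/A against WT and -3.54 in Del against WT, and within the second it was -3.43 and -2.18, none of them called. The first slide held 1 Del array and the second 1 H/A array, so -3.54 and -3.43 each rest on 1 mouse, at 8.33 in Del and 7.56 in H/A, taken to vary like the other groups. With the slide in the label as a block, the Onecut1 difference was -2.44 in H/A against WT (limma adjusted p = 0.0456) and -2.72 in Del against WT (0.0191). With the scanner files taken as listed, the Onecut1 difference was -1.62 in H/A against WT, -1.89 in Del against WT and -1.09 in Del against Flox, none called (limma adjusted p = 0.99, 0.963 and 0.671).

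**Figure D2:**
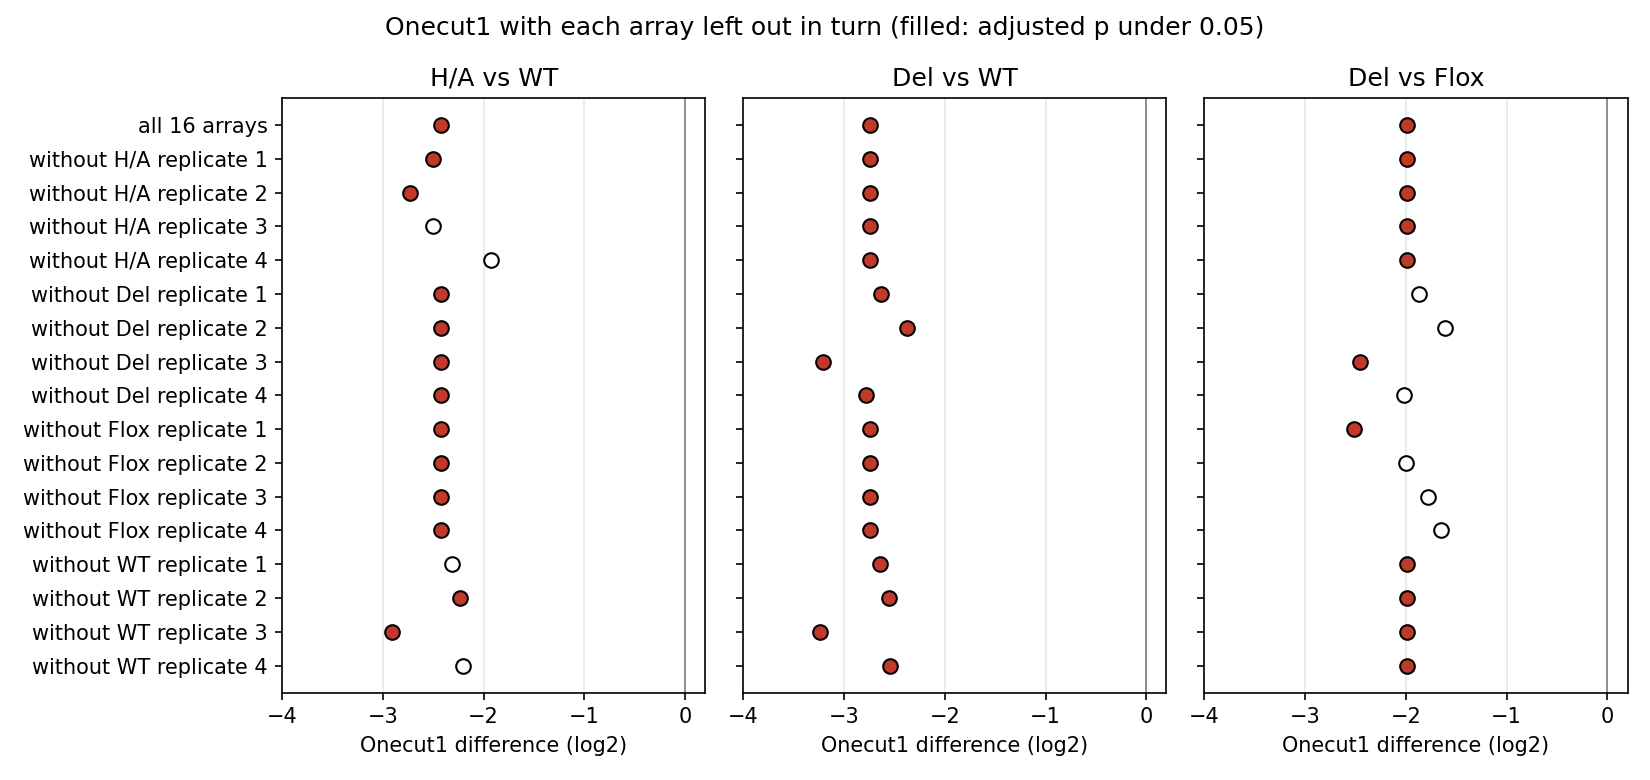
Onecut1 difference (log2, horizontal axis) in H/A against WT, Del against WT and Del against Flox, in the fit of all 16 arrays and with each array left out, filled where the limma adjusted p was under 0.05. All points lie below 0, and the Del against WT points are filled in all 17 fits.

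The genes whose levels, centred on each gene's mean, lay closest to those of Onecut1 over the 16 arrays were B3galt1, Mpp4 and Gm35889. Their root mean square distances from Onecut1 were 0.70, 0.73 and 0.86 on the log2 scale, where the median gene had 1.47. B3galt1, a galactosyltransferase gene, averaged 6.34 in H/A, 6.43 in Del, 7.65 in Flox and 7.95 in WT. Mpp4, a membrane scaffold gene, averaged 4.09 in H/A, 3.82 in Del, 5.75 in Flox and 6.55 in WT. These genes were picked for that likeness, so their levels are a description.

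Hnf4a, the nuclear receptor at the centre of hepatocyte identity, varied little. In H/A livers its log2 level was 11.70, 11.61, 11.70 and 11.98, and in Del livers it was 11.43, 11.78, 11.71 and 11.51. In Flox livers the level was 11.64, 12.03, 12.16 and 11.74, and in WT livers it was 11.66, 11.99, 11.75 and 11.93. All 4 groups overlapped. The Hnf4a difference was -0.09 (-0.39 to 0.22) in H/A against WT and -0.23 (-0.53 to 0.07) in Del against WT, with limma adjusted p of 0.688 and 0.263. Between Del and Flox it was -0.28 (-0.58 to 0.02, limma adjusted p = 0.121).

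Foxa3 encodes a forkhead factor that opens and holds hepatocyte chromatin with its relatives. Foxa3 read 12.10, 11.48, 12.16 and 11.91 in H/A livers, and 12.00, 11.89, 12.02 and 11.92 in Del livers. It read 11.38, 11.57, 11.97 and 12.02 in Flox livers, and 12.15, 12.44, 11.92 and 12.22 in WT livers. The Del mice lay close together, and the lower Flox mice lay below all WT mice while the upper ones did not. The Foxa3 difference was -0.27 (-0.64 to 0.10) in H/A against WT and -0.23 (-0.60 to 0.14) in Del against WT, with limma adjusted p of 0.279 and 0.356. In Flox against WT it was -0.45 (-0.82 to -0.08), with an unadjusted p of 0.02 and a limma adjusted p of 0.802.

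Cebpa, which drives genes of gluconeogenesis and urea synthesis, was lower on average in H/A and Del mice than in WT mice without passing the test. Cebpa read 10.47, 10.47, 10.41 and 10.30 in H/A livers, and 9.69, 10.15, 10.92 and 10.63 in Del livers. It read 10.46, 10.55, 10.58 and 10.80 in Flox livers, and 10.77, 10.70, 10.78 and 10.86 in WT livers. The Del mice spread across the values of both H/A and WT. The Cebpa difference was -0.37 (-0.78 to 0.05) in H/A against WT and -0.43 (-0.85 to -0.02) in Del against WT, with limma adjusted p of 0.201 and 0.139. Without Del replicate 3, the highest Del mouse, Cebpa was called in Del against WT at -0.62 (limma adjusted p = 0.0429). It was called there in no other of the 28 alternative settings. Leaving out the highest mouse of a group lowers its mean, so nothing is read from that call.

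Cebpb, the C/EBP gene that rises in the acute phase response, overlapped between all groups. Cebpb read 10.27, 10.63, 10.38 and 9.97 in H/A livers, and 10.37, 9.79, 10.74 and 10.57 in Del livers. It read 9.86, 9.94, 10.32 and 10.10 in Flox livers, and 10, 9.70, 10.76 and 10.23 in WT livers. Each group held mice on both sides of the WT mean. The Cebpb difference was 0.14 (-0.36 to 0.63) in H/A against WT and 0.19 (-0.30 to 0.69) in Del against WT, with limma adjusted p of 0.697 and 0.559.

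Nr1h4 encodes FXR. In H/A livers its log2 level was 11.10, 11.35, 11.19 and 10.62, and in Del livers it was 10.56, 10.55, 11.28 and 11.32. In Flox livers the level was 10.69, 11.12, 11.37 and 11.25, and in WT livers it was 10.90, 10.36, 11.04 and 11.16. Every group had at least one low mouse, and the groups overlapped. The Nr1h4 difference was 0.20 (-0.30 to 0.70) in H/A against WT and 0.06 (-0.44 to 0.57) in Del against WT, with limma adjusted p of 0.566 and 0.860. Another of its 5 probes, designed on XM_006513391.1, differed between Del and Flox by -0.74 (limma adjusted p = 0.0339 over all probes), where the probe used differed by -0.18. That other probe was far dimmer, with a mean of 5.02 over the 16 arrays, against 10.99 for the probe used. It was well above background on 15 arrays. The remaining Nr1h4 probes differed between Del and Flox by -0.28, 0.01 and -0.04, none called.

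Nr0b2, which encodes SHP, was highest in WT mice on average, with a wide spread. Nr0b2 read 9.62, 8.02, 7.55 and 9.24 in H/A livers, and 7.86, 9.21, 7.65 and 9.06 in Del livers. It read 8.20, 8.98, 9.12 and 7.41 in Flox livers, and 10.45, 9.32, 9.05 and 9.51 in WT livers. Each of the other genotypes held both high and low mice, and all of them overlapped with WT. The Nr0b2 difference was -0.98 (-2.07 to 0.11) in H/A against WT and -1.14 (-2.23 to -0.05) in Del against WT, with limma adjusted p of 0.191 and 0.137. In Flox against WT it was -1.16 (-2.25 to -0.07, limma adjusted p = 0.802). The within-group standard deviation of Nr0b2, 0.81, was larger than that of 96.9% of genes.

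Nr1i3 encodes CAR. In H/A livers its log2 level was 10.05, 9.15, 10.31 and 8.87, and in Del livers it was 9.54, 9.84, 9.36 and 9.98. In Flox livers the level was 10.41, 9.56, 9.98 and 10.39, and in WT livers it was 9.76, 9.17, 10.27 and 9.69. The H/A mice spread almost as widely as all 16 mice, and the groups overlapped. The Nr1i3 difference was -0.13 (-0.79 to 0.54) in H/A against WT and -0.05 (-0.71 to 0.62) in Del against WT, with limma adjusted p of 0.793 and 0.926. Between H/A and Flox it was -0.49 (-1.15 to 0.18, limma adjusted p = 0.223).

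**Figure D3:**
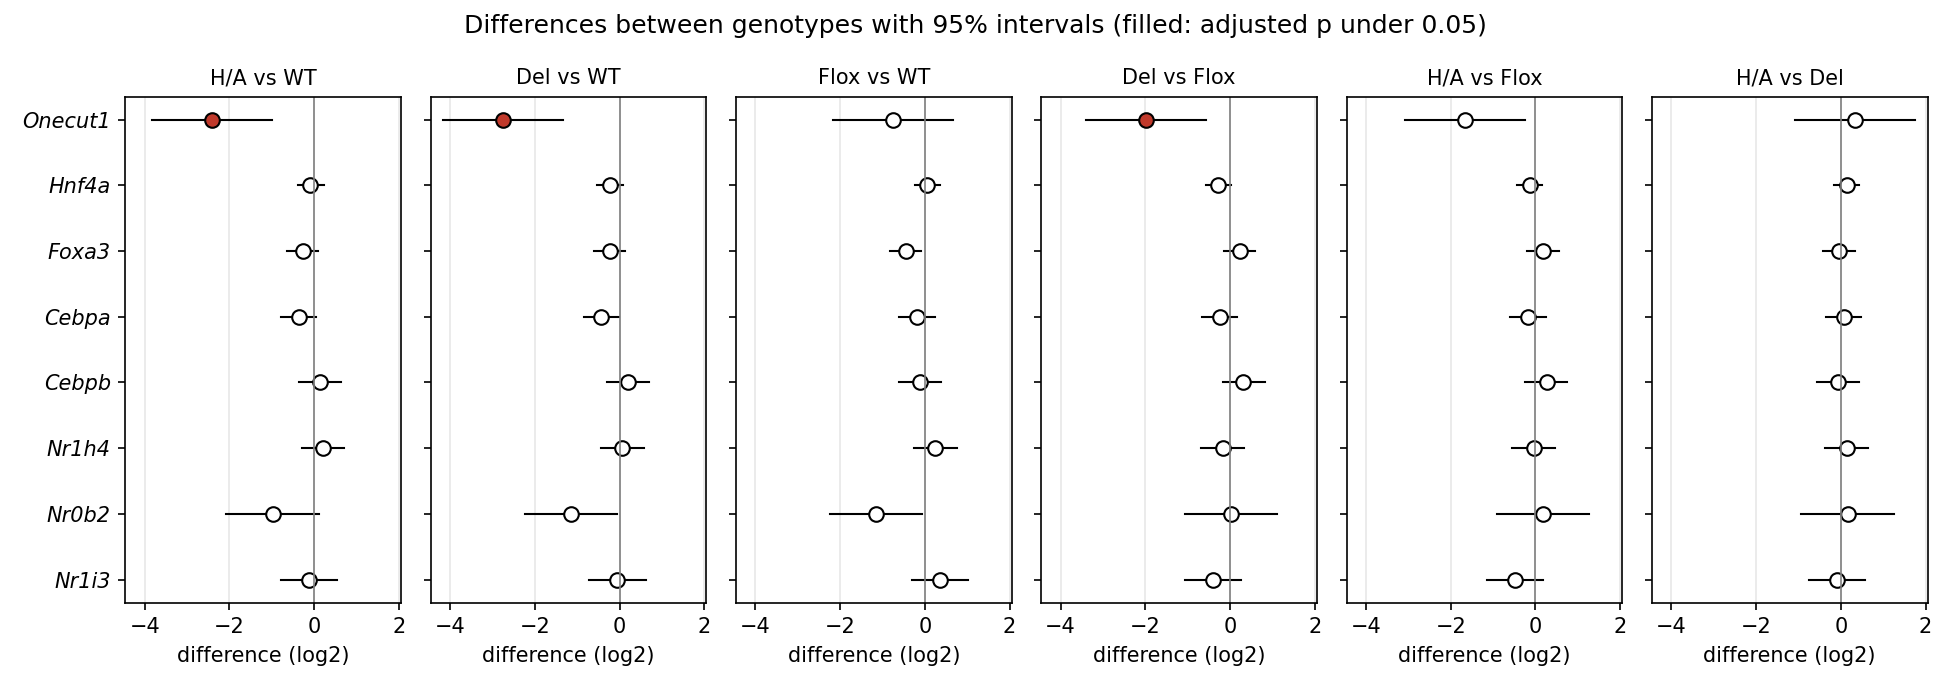
Differences in log2 signal (points) with 95% intervals (lines) for the 8 genes in 6 comparisons, the first-named genotype minus the second, filled where the limma adjusted p was under 0.05. The filled points are those of Onecut1 in H/A against WT (-2.42), Del against WT (-2.74) and Del against Flox (-1.99).

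Nr1i3 had 6 probes, and they parted on 1 array, that of H/A replicate 2. The probe used and 2 of those that parted from it are shown, since the disagreement is between these sequences. All are lower case.
NM_001243063.1 (used): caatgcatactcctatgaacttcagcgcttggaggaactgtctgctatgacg
NM_009803.5: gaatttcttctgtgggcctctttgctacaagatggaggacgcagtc
XR_373595.1: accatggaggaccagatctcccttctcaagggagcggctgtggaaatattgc
On that array the NM_009803.5 probe of Nr1i3 lay 1.15 above the probe used, on the log2 scale, whereas on the other 15 arrays the same difference ran from -2.08 to -1.38. For the XR_373595.1 probe the difference was -1.5 on that array and -3.43 to -2.87 on the others, and for the XR_373594.1 probe it was -1.54 and -2.89 to -2.16. The XM_006496628.1 and XM_006496629.1 probes stayed within the range of the other 15 arrays. The 2 printed probes that parted thus read high on 1 H/A mouse while the probe used did not.

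**Figure D4:**
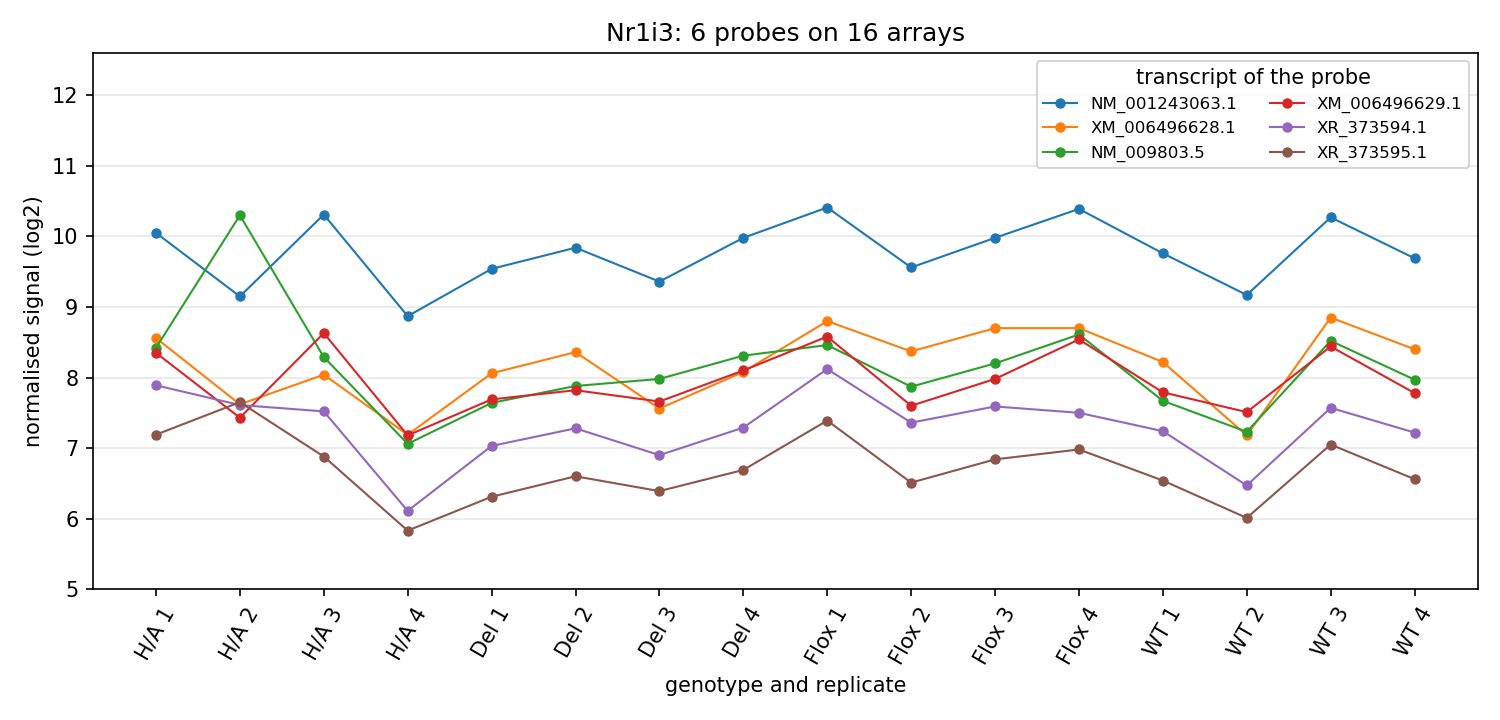
Normalised signal (log2, vertical axis) of the 6 Nr1i3 probes on each array, by genotype and replicate, with 1 line per probe. The NM_009803.5 line rises above the NM_001243063.1 line on H/A replicate 2, by 1.15, and lies below it on the other 15 arrays.

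For the genes of the other lists, differences are on the log2 scale, and rose or fell stands for a limma adjusted p under 0.05 over all genes. Where a call held in fewer than 20 of the 28 alternative settings, the number of settings is given in brackets. Counts in every list stand against the shares of all genes called. These shares were 10.1% in H/A against WT, 13.2% in Del against WT, 34.8% in Del against Flox and 33.2% in H/A against Flox. Of 20 other hepatocyte transcription factors, 15 were tested, and limma called 0 in H/A against WT and 0 in Del against WT, with 5 and 4 at an unadjusted p under 0.05. Their median difference was 0.15 in H/A and -0.06 in Del, where all genes had -0.09 and -0.11. In Del against Flox 1 rose and 3 fell, where 34.8% of all genes were called. Onecut2, the relative of Onecut1, fell by 1.39 there (9.93 ± 0.23 in Del, 11.32 ± 0.18 in Flox), Foxa1 fell by 0.57, Klf15 fell by 0.42 (16 of 28) and Cebpd rose by 1.06 (19 of 28). In H/A against Flox 1 rose and 4 fell, where 33.2% of all genes were called. Foxa1 fell by 0.67 there (-0.05 with no scaling between arrays), Tcf7l2 fell by 0.58 (16 of 28, 0.03 with no scaling) and Nr5a2, an orphan receptor of bile acid genes, rose by 0.77.

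Of 35 other nuclear receptors, 29 were tested. In H/A against WT 3 rose and 0 fell, and in Del against WT 2 rose and 0 fell, by limma, with 7 and 6 at an unadjusted p under 0.05 in either direction. Their median difference was 0.02 in H/A and -0.06 in Del. Pparg, the fat cell receptor, averaged 8.58 ± 0.22 in H/A, 8.99 ± 0.32 in Del and 7 ± 0.31 in WT (SD, n = 4 each), differences of 1.59 in H/A and 1.99 in Del (limma adjusted p = 0.000623 and 6.76e-05). Rarg, a retinoic acid receptor, rose by 0.79 in H/A and by 0.66 in Del (18 of 28) against WT, and Esr1, the oestrogen receptor, rose by 0.85 in H/A (15 of 28). In Del against Flox 5 rose and 4 fell, where 34.8% of all genes were called. In H/A against Flox 6 rose and 2 fell, where 33.2% of all genes were called. Nothing is read from these counts against the shares. Thrb, a thyroid hormone receptor, fell by 0.60 in Del against Flox.

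Of 15 coregulators of nuclear receptors, 14 were tested, with a median difference of -0.02 in H/A and -0.07 in Del against WT. Med1, a Mediator subunit that binds nuclear receptors, averaged 9.73 ± 0.08 in H/A, 9.85 ± 0.16 in Del, 10.91 ± 0.30 in Flox and 10.65 ± 0.17 in WT (SD, n = 4 each). It fell by 0.92 in H/A and by 0.80 in Del against WT, and by 1.06 in Del and 1.18 in H/A against Flox. These falls are those of the probe used, the brightest of 5. With the mean of all detected probes the Med1 difference was -0.14 in H/A and -0.23 in Del against WT, and -0.15 in Del and -0.06 in H/A against Flox (limma adjusted p = 0.387, 0.171, 0.305 and 0.687). Crebbp, an acetyltransferase, fell by 0.75 in H/A against WT, but was -0.25 with the mean of its probes and -0.23 with no scaling between arrays (limma adjusted p = 0.206 and 0.484). Hdac3, a deacetylase of corepressor complexes, rose by 0.48 in H/A against WT (19 of 28). In Del against Flox, Ppargc1a, the coactivator of fasting metabolism, fell by 1.71 and Nrip1 rose by 1.01. In H/A against Flox, Nrip1 rose by 1.23, and Crebbp fell by 0.64, against -0.21 with the mean of its probes and -0.08 with no scaling.

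Known targets of the members moved in both directions. Of the 11 listed FXR target genes 9 were tested, Nr0b2 among them, of which 3 were raised and 1 lowered in H/A against WT, with 3 and 2 in Del. Abcb4, the phospholipid exporter of bile, averaged 12.67 ± 0.20 in H/A, 12.79 ± 0.19 in Del and 11.52 ± 0.09 in WT (SD, n = 4 each), differences of 1.15 in H/A and 1.27 in Del. Slc51b, a bile acid exporter, was well above background on 1 of 4 WT arrays, and the size of its rise depended on the background correction. It was 2.58 in H/A and 2.93 in Del as reported, and 0.48 and 0.60 with normexp correction. Apoc2 rose by 0.86 in H/A and 1.17 in Del. Fetub fell by 0.47 in H/A (8 of 28), where it was 0.07 with no scaling between arrays, and Slc27a5, which conjugates bile acids, fell by 0.80 in Del. Against Flox, Abcc2, a canalicular exporter, fell by 0.49 in H/A (13 of 28), where it was 0.15 with no scaling between arrays. The median of the FXR list was -0.34 in H/A and -0.15 in Del against WT.

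Among 4 genes that FXR and SHP are known to lower, 1 fell in H/A and 2 in Del against WT. Cyp7b1, of the alternative bile acid pathway, averaged 7.19 ± 0.15 in H/A, 7.20 ± 0.09 in Del and 10.34 ± 0.43 in WT (SD, n = 4 each), differences of -3.16 and -3.14. Slc10a1, the bile acid importer, fell by 1.25 in Del. Cyp7a1, the rate-limiting enzyme of bile acid synthesis, and Cyp8b1 were not called in either comparison. The 4 genes did not all move the same way. Their differences ran from -3.16 to 1.46 in H/A and from -3.14 to 0.79 in Del against WT. The median of these 4 genes was -0.89 in H/A and -1.18 in Del against WT, with 3 at an unadjusted p under 0.05 in each.

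Of 18 CAR target genes 16 were tested, and against WT 4 rose and 5 fell in H/A livers, as many as in Del livers. Cyp3a11, a drug-metabolising enzyme, rose by 1.97 in H/A and 1.83 in Del, Gstm3 by 1.45 and 1.44, and Abcc4 by 1.57 and 1.54, which were 0.90 and 0.86 with normexp correction. Cyp2c37 fell by 0.79 in H/A (-0.21 with no scaling) and 1.14 in Del. Cyp2c29 fell by 1.13 in Del against Flox. Cyp2b10, a classical CAR target, was dim, with means of 4.20 in H/A, 4.04 in Del and 4.86 in WT. It was not called in H/A or Del against WT. Cyp2b13, also on the list, averaged 7.22 in H/A, 6.50 in Del and 2.55 in WT. It was well above background on 1 of 4 WT arrays. Cyp2b13 was not called in H/A or Del against WT either (limma adjusted p = 0.0557 and 0.0842). The median of the CAR list was -0.29 in H/A and -0.53 in Del against WT.

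**Figure D5:**
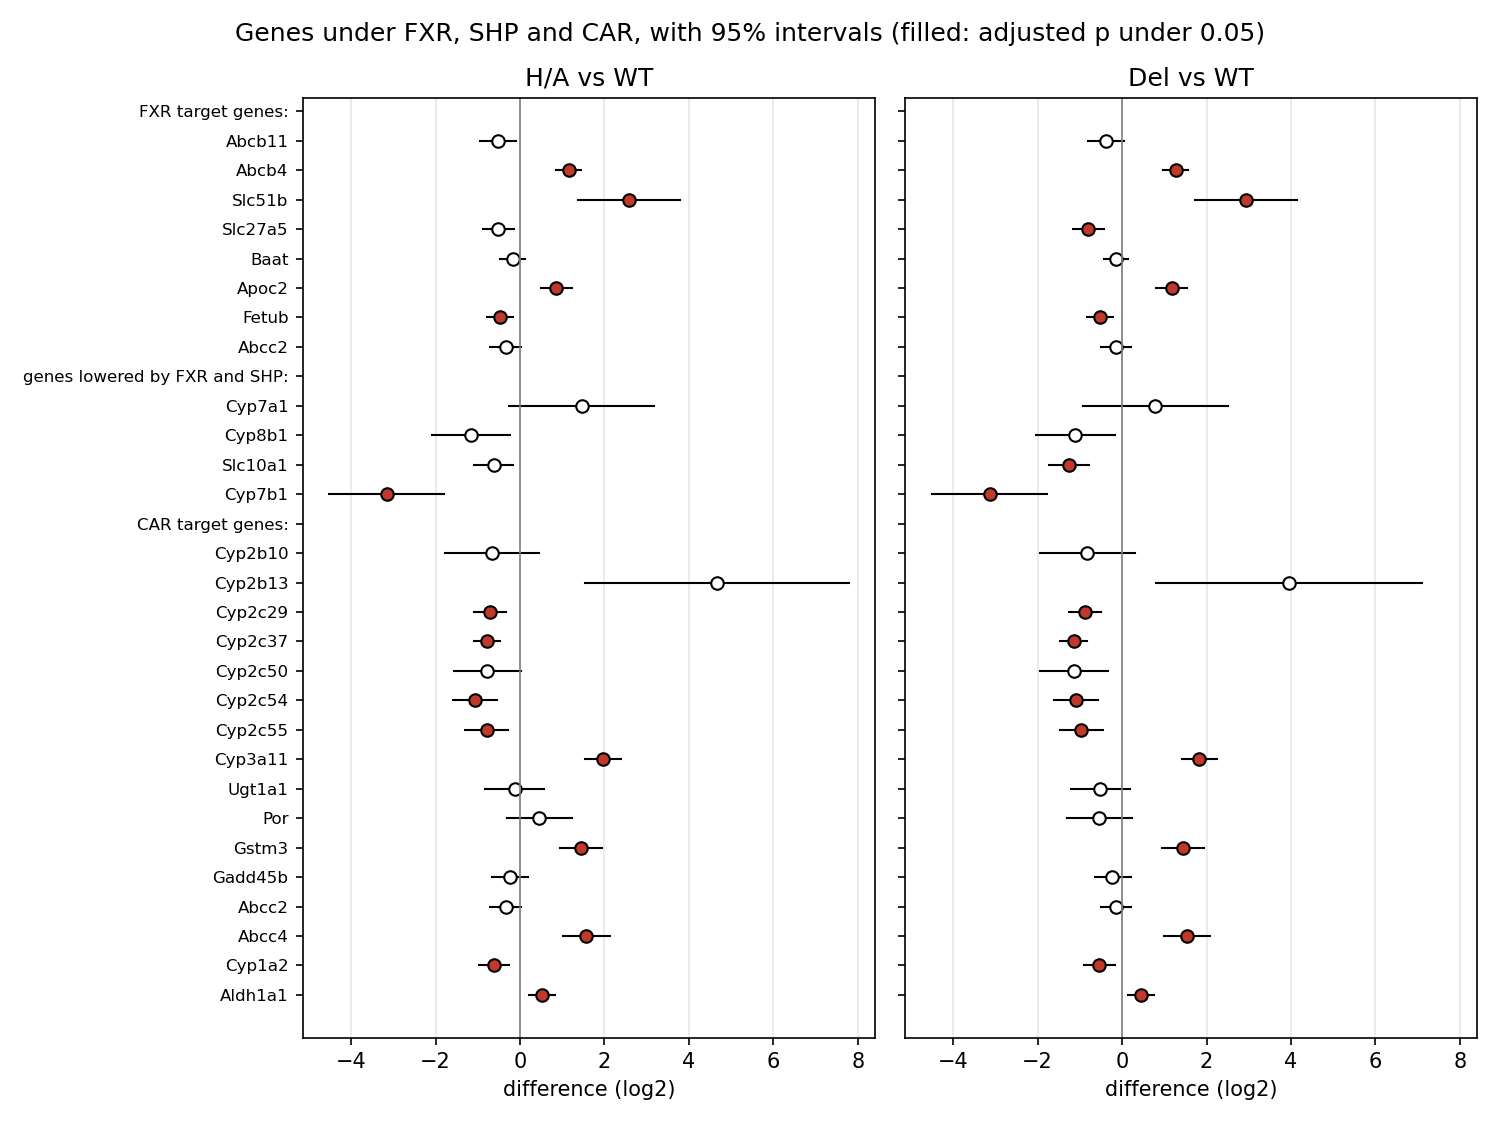
Differences in log2 signal (points) with 95% intervals (lines) for FXR target genes other than Nr0b2, genes lowered by FXR and SHP, and CAR target genes, in H/A against WT (left) and Del against WT (right), filled where the limma adjusted p was under 0.05. Cyp7b1 lies at -3.16 and -3.14, and Cyp3a11 at 1.97 and 1.83.

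All 18 HNF4A target genes were tested, and against WT 1 rose and 1 fell in H/A livers, as many as in Del livers. Apoc2, shared with the FXR list, rose in each, and F7, clotting factor VII, fell by 0.74 in Del. Mttp, which loads lipid onto lipoproteins, fell by 0.62 in H/A, but was -0.03 with no scaling between arrays and -0.25 with the mean of its 2 probes (limma adjusted p = 0.897 and 0.381). Against Flox, Pklr fell by 0.64 in Del and 0.71 in H/A, F7 fell by 0.44 and Apom rose by 0.54 in Del, and Dio1 fell by 1.5 in H/A. With no scaling these 4 falls were -0.43, -0.07, -0.21 and -0.85, none called. Of 13 C/EBP target genes 12 were tested, of which against WT 2 rose and 2 fell in H/A, with 1 and 0 in Del. Lcn2, an acute phase gene, rose by 2.72 in H/A and 2.78 in Del, and Cps1, of the urea cycle, rose by 0.68 in H/A (19 of 28). Orm1, another acute phase gene, fell by 0.89 in H/A (7 of 28), with values of -1.16 to -0.14 over these settings. Against Flox, Hp rose by 0.34 in Del (11 of 28) and G6pc fell by 1.23 in H/A (18 of 28). Of 8 FOXA target genes, all tested, H/A livers had 2 higher and 1 lower, and Del livers had 1 higher, against WT. Igfbp1, a growth factor binding protein gene, rose by 2.43 in H/A and 1.82 in Del, Cpt1a rose by 0.87 in H/A, and Afp fell by 0.38 in H/A against Flox (11 of 28), where it was 0.21 with no scaling between arrays. The medians in H/A and Del against WT were -0.16 and -0.15 for the HNF4A list, 0.05 and -0.16 for the C/EBP list, and 0.06 and 0.03 for the FOXA list.

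Of 10 markers of Kupffer cells and macrophages 9 were tested. Against WT 7 rose in H/A and 6 in Del. Against Flox 7 rose in H/A, while in Del 5 rose and 1 fell. Their summed signal on the log2 scale was 12.05 to 13.17 in H/A, 11.87 to 12.15 in Del, 10.88 to 11.35 in Flox and 10.53 to 11.47 in WT. Of 9 hepatocyte markers, Cps1 and Hpx rose and Serpina1c fell in H/A against WT. The summed signal of 5 of 7 cholangiocyte markers was 11.43 to 11.58 in H/A, 11.59 to 11.96 in Del, 11.89 to 12.26 in Flox and 11.49 to 12.06 in WT. Neutrophil markers gave 2 higher of 6 tested in H/A against WT and 1 in Del, while limma called 0 of 5 cholangiocyte, 0 of 9 stellate cell, 0 of 8 endothelial and 0 of 6 lymphocyte markers in either. At an unadjusted p under 0.05 these counts were 1, 2, 2 and 0 in H/A and 1, 4, 1 and 1 in Del. Pancreatic acinar markers gave 1 lower of 5 tested in each, which was Cela1 (7 of 28 in H/A against WT, -0.10 there with no scaling). In Del against Flox, where 34.8% of all genes were called, 4 of 9 stellate cell markers rose. These were Col1a1 (by 1.45), Col1a2 (1.07), Acta2 (0.62, 19 of 28) and Dcn (0.51). In the same comparison 1 of 5 cholangiocyte markers, Sox9, rose by 1.09. One neutrophil marker of 6 rose there, and limma called 0 of 8 endothelial, 0 of 6 lymphocyte and 0 of 5 acinar markers, with 1, 4 and 2 at an unadjusted p under 0.05. The part of other cells in the Onecut1 result was not tested.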

How the data were processed

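Liver RNA of 16 mice, 4 per genotype, was hybridised in 1 colour to Agilent arrays. Per the file headers, the scanner intensity values were extracted with Agilent Feature Extraction 11.5.1.1, and the submitters' processing notes name Agilent Feature Extraction 11 and Partek. The authors deposited a table of log2 values with 1 median, 4.36, on all arrays. Rows were named through RefSeq transcripts of GRCm38.p6 (36264 of 60037). A probe had to be flagged as above background on 4 or more of the 16 arrays. Each gene was represented by its brightest probe, and 1 mean per genotype was fitted with limma 3.58.1 in R 4.3.3, over 31484 genes, with Benjamini-Hochberg adjustment at 0.05. The fit was tested on simulated data. The members and gene lists were chosen with earlier results of these data known. Named were all members, per list and comparison up to 4 called genes with the smallest p, and the 3 genes most like a called member. Not every such list gene is reported here. The number of mice limits the precision. The p-values set a difference of means against the spread between mice, which limma moderates over all genes. Alternatives covered scaling, background, filter, slide, moderation, probe choice and each array left out.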

Additional observations from a re-analysis of the deposited data

Results flagged for a closer look

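Onecut1 in WT replicate 3 was 9.94 on the log2 scale, far below the other 3 WT mice at 11.75, 12.01 and 12.04. The gap to the nearest of them was 0.864 of the range of the group, above the 95% critical value of Dixon's test for 4 samples. It was the only one of 32 groups of member values past that value, and chance flags about 1 in 20. Without that mouse the Onecut1 difference was -2.91 in H/A against WT and -3.24 in Del against WT, both called. WT replicate 3 is one of the 6 samples whose listed scanner file was not the one at the labelled position, and its value column matched the file at the labelled position.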

How the results depend on the processing

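The count of members called, 1 in H/A against WT, was 2 with no scaling between arrays and 0 with scanner files as listed, with no filter on dim probes, with the slide in the file name as a block, within slide 1 and within slide 2. In Del against WT, 1 became 0 with the files as listed, the file-name slide, slide 1 and slide 2. In Del against Flox, 1 became 0 with these, with no scaling, with files paired by label and with no filter, and in H/A against Flox 0 became 2 with no scaling. With 1 array left out the count ran from 0 to 1 in H/A against WT, 1 to 2 in Del against WT, 0 to 1 in Del against Flox and 0 to 1 in H/A against Flox, and was 0 in Flox against WT and H/A against Del. The file-name slide overlaps with genotype, files as listed hold 6 arrays of other samples by the match above, and the cause of the other changes was not tested. With no scaling the median of all genes was 0.37 in H/A against WT, where it was -0.09 as reported, and 0.31 in H/A against Flox, where it was -0.14. Without scaling, called falls turned to higher values for Tcf7l2 (0.03), Abcc2 (0.15), Afp (0.21), Reln (0.14), Oit3 (0.14), Cd4 (0.12) and Csf3r (0.22) in H/A against Flox and for Fetub (0.07) in H/A against WT. Oit3 also turned (0.05) with files as listed, and Mttp in Del against Flox (0.13) with the mean of all detected probes. Of the 42 differences of the other members 32 changed sign under some alternative and 4 were called under some alternative. These were Cebpa in Del against WT without Del replicate 3 (-0.62) and, with no scaling, Nr1h4 in H/A against WT (0.81), Foxa3 (0.86) and Cebpb (0.90) in H/A against Flox. Of 141 differences of listed genes, 97 were called with no scaling and 0 with files as listed. The number of genes called in H/A against WT ran from 5 (files as listed) to 9540 (no scaling), against 3166. No paired analysis was possible because the labels give the mice no replicate numbers, and the numbers here follow the order of the samples.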
